A study of Mus musculus with 13 samples.

Results

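Hormone-exposed mammary fibroblasts were compared with placebo-exposed ones over all genes, arranged by function. The 4 libraries were MPA_E_1 and MPA_E_2 (called MPA+E 1 and 2) and Placebo_1 and Placebo_2, from wild-type C57BL/6 females aged 9 weeks. The hormone arm received medroxyprogesterone acetate (MPA, a synthetic progestin) together with estradiol (E), both as pellets under the skin, and the control arm received placebo pellets. Glands were taken about a week later. The labels give 2 females per condition and the methods a pair of females per replicate library, so how many mice stand behind a library is not settled, and p-values measure the spread between these libraries. The sort kept stromal cells without CD24 and without the endothelial, blood and red cell markers CD31, CD45 and TER-119. Droplet sequencing read the 3′ ends of transcripts, and a unique molecular identifier (UMI) marked each captured molecule.

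Fibroblasts were chosen by a gate on each barcode. A barcode had 500 to 7500 genes, at most 10% mitochondrial UMIs, at least 50 UMIs of Dcn, Lum and Col1a2 together per 10000 UMIs, and no UMI of Epcam, Pecam1, Rgs5, Sox10, Ptprc or Myog. This left 24452 of the 30266 barcodes of the 4 libraries, out of 100523 gated barcodes in all 13 libraries of the series. The gate kept 4843 and 5760 fibroblasts with placebo and 5152 and 8697 with MPA+E. Their UMIs were summed per library, and a level is given as counts per 1000000 gated UMIs of the library (CPM).

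Progestins and estrogens act through the progesterone receptor and the estrogen receptor, which are transcription factors that bind DNA once their ligand is bound. In the mammary gland they drive branching of the ducts and growth of alveoli, partly by way of signals between epithelium and stroma. Fibroblasts supply the collagen-rich matrix, growth factors and guidance cues around the ducts, and some of them can become fat cells. Interferons are secreted alarm signals, best known from virus infection, which switch on a shared set of antiviral and antigen presentation genes.

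The gated UMIs came to 69464397 and 72103900 with placebo and to 87021211 and 91162970 with MPA+E. Median UMIs per fibroblast were 14158 and 12475 with placebo and 16827 and 10216 with MPA+E, so the arms overlapped in depth per cell. Each pair of libraries shared between 6 and 14 gated barcodes. The fibroblast label was checked on genes that the gate did not use. Pdgfra, a receptor gene that marks fibroblasts, stood at 428 and 350.2 CPM with placebo and 622 and 502 CPM with MPA+E, and the CPM of Krt8, Krt18, Cdh5 and C1qa each stayed under 1 in every library. The median absolute log2 difference between libraries was 0.158 for the placebo pair and 0.196 for the MPA+E pair, and 0.200 to 0.269 across the arms.

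Of 15642 genes tested, 678 were called at an adjusted p under 0.05 (edgeR quasi-likelihood test, Benjamini-Hochberg adjustment), which is 4.33% of the tested genes. With MPA+E 421 genes were higher (2.69%) and 257 lower (1.64%). The median log2 change of the raised genes was 1.46, and 316 of them rose at least 2-fold. The lowered genes had a median of -1.11, and 145 fell at least 2-fold. Over all tested genes the median was 0.01. Before adjustment, 2893 genes fell under a p of 0.05. The calls rested on both placebo libraries: without placebo 1 only 22 genes were called and without placebo 2 only 42, and all but 1 of these were among the 678. Without MPA+E 1 or MPA+E 2 the counts were 900 and 787, with 598 and 548 of the 678 among them. The calls of 56 of the 678 were lost whichever of the 4 libraries was left out, and of the genes named here these were Ly6a, Lox, Eln, Efemp1, Grb10, Ifi27, Tmem100, Sdc1, Tgfbr2 and Vwf. With 1 library left out of an arm, the spread was estimated from the other arm's pair alone. The MPA+E pair lay further apart than the placebo pair, with median absolute log2 differences of 0.196 against 0.158. A pooled sum over fibroblasts cannot tell a change within cells from a change in the mix of fibroblast kinds.

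Genes were sorted into 65 functional lists holding 1598 tested genes. The bar plot of called shares by list shows where calls were dense. Interferon-induced genes and MHC class I genes reached the highest shares called higher, and progenitor markers, preadipocyte markers, the IGF axis, guidance cues and the Wnt pathway leaned to lower levels.

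**Figure D1:**
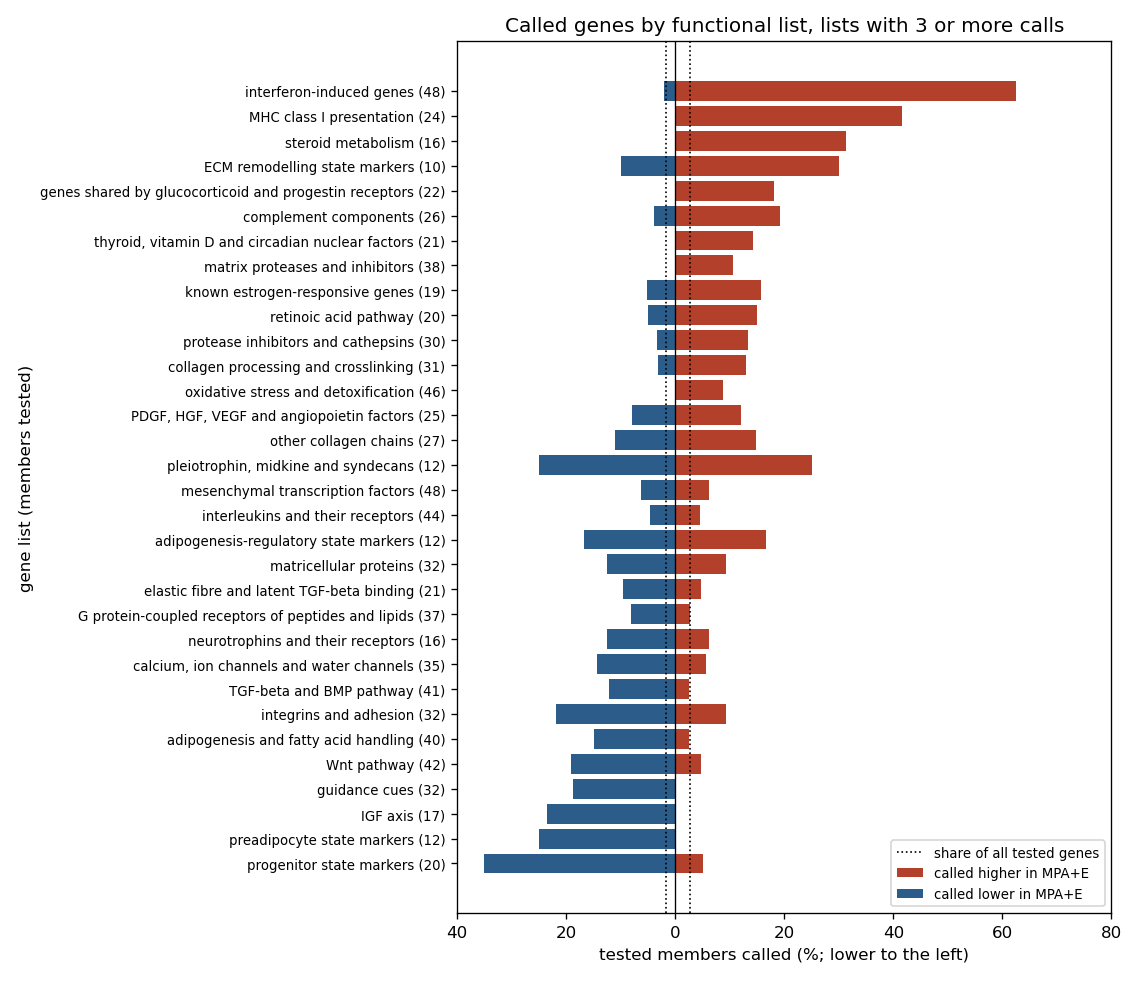
Share of tested members called higher (red, right) or lower (blue, left) in MPA+E for each functional list with 3 or more calls, markers of other cells left out; dotted lines mark the shares over all tested genes, 2.69% higher and 1.64% lower. Interferon-induced genes stand at the top with 30 of 48 members higher, and progenitor markers at the bottom with 7 of 20 lower.

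The interferon response was the densest block of raised genes. Of 48 tested interferon-induced genes, 30 rose, 1 fell, and the list's median log2 change was 1.34 against 0.01 over all genes. Their summed level was 9024 and 8142 CPM with placebo and 18132 and 18604 CPM with MPA+E. Without placebo 1 the median was 1.43 and 6 members were called higher, and without placebo 2 it was 1.31 with 7.

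Ifi44, an antiviral gene, stood at 8.29 and 4.44 CPM with placebo and 104 and 99.2 CPM with MPA+E (log2 change 4.03, SE 0.28, adjusted p = 0.0072). Oas3, which makes the messenger that activates RNase L, stood at 2.26 and 0.957 CPM with placebo and 23.3 and 30.6 CPM with MPA+E (log2 change 4.10, SE 0.39, adjusted p = 0.011). Rsad2 encodes viperin, an enzyme that makes a chain-terminating nucleotide. Its level was 44.7 and 40.3 CPM with placebo and 352 and 457 CPM with MPA+E (log2 change 3.27, SE 0.19, adjusted p = 0.0069). Ifit3, a partner of RNA-binding antiviral proteins and nearly identical in sequence to Ifit3b, was at 75.98 and 68.2 CPM with placebo and 483 and 492 CPM with MPA+E (log2 change 2.77, SE 0.11, adjusted p = 0.0037). In each of these genes both MPA+E libraries lay above both placebo libraries. Over all tested genes 21.2% had both MPA+E libraries above both placebo libraries and 22.4% had both below. A call in 2 libraries against 2 favours such a separation, so here and below it adds no support of its own.

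Other raised members act at several steps of the response. Irf7, a transcription factor that amplifies interferon production, measured 76.1 and 57.1 CPM with placebo and 436 and 441 CPM with MPA+E (log2 change 2.74, SE 0.15, adjusted p = 0.0066). Stat2, a factor that carries the receptor's signal to the nucleus, measured 52.1 and 38.7 CPM with placebo and 116 and 100.5 CPM with MPA+E (log2 change 1.27, SE 0.13, adjusted p = 0.014), and its partner Irf9 had a log2 change of 0.54 with adjusted p = 0.056. Isg15, a ubiquitin-like modifier, measured 199 and 164 CPM with placebo and 989.5 and 969.9 CPM with MPA+E (log2 change 2.45, SE 0.12, adjusted p = 0.0058). Its protease Usp18, the RNA sensors Ifih1, Ddx58 and Dhx58, the nucleic acid sensor Zbp1 and the membrane restriction factors Bst2 and Ifitm3 were also called higher.

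Not all members moved. Ifi27 was the member that fell, with 198 and 216 CPM with placebo and 127 and 118 CPM with MPA+E (log2 change -0.75, SE 0.12, adjusted p = 0.042). Irf1 and Gbp2 had log2 changes of -0.19 and 0.71 with adjusted p = 0.80 and 0.19, while Gbp3 and Igtp were called higher (1.56 and 1.16). Cxcl10, a chemokine of the interferon response, measured 728 and 423 CPM with placebo and 813 and 944 CPM with MPA+E (adjusted p = 0.27), with the placebo libraries far apart. The receptor genes were also not called: Ifnar1 had a log2 change of -0.15 (adjusted p = 0.55), Ifnar2 of 0.06 (0.87) and Ifngr1 of 0.22 (0.50).

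**Figure D2:**
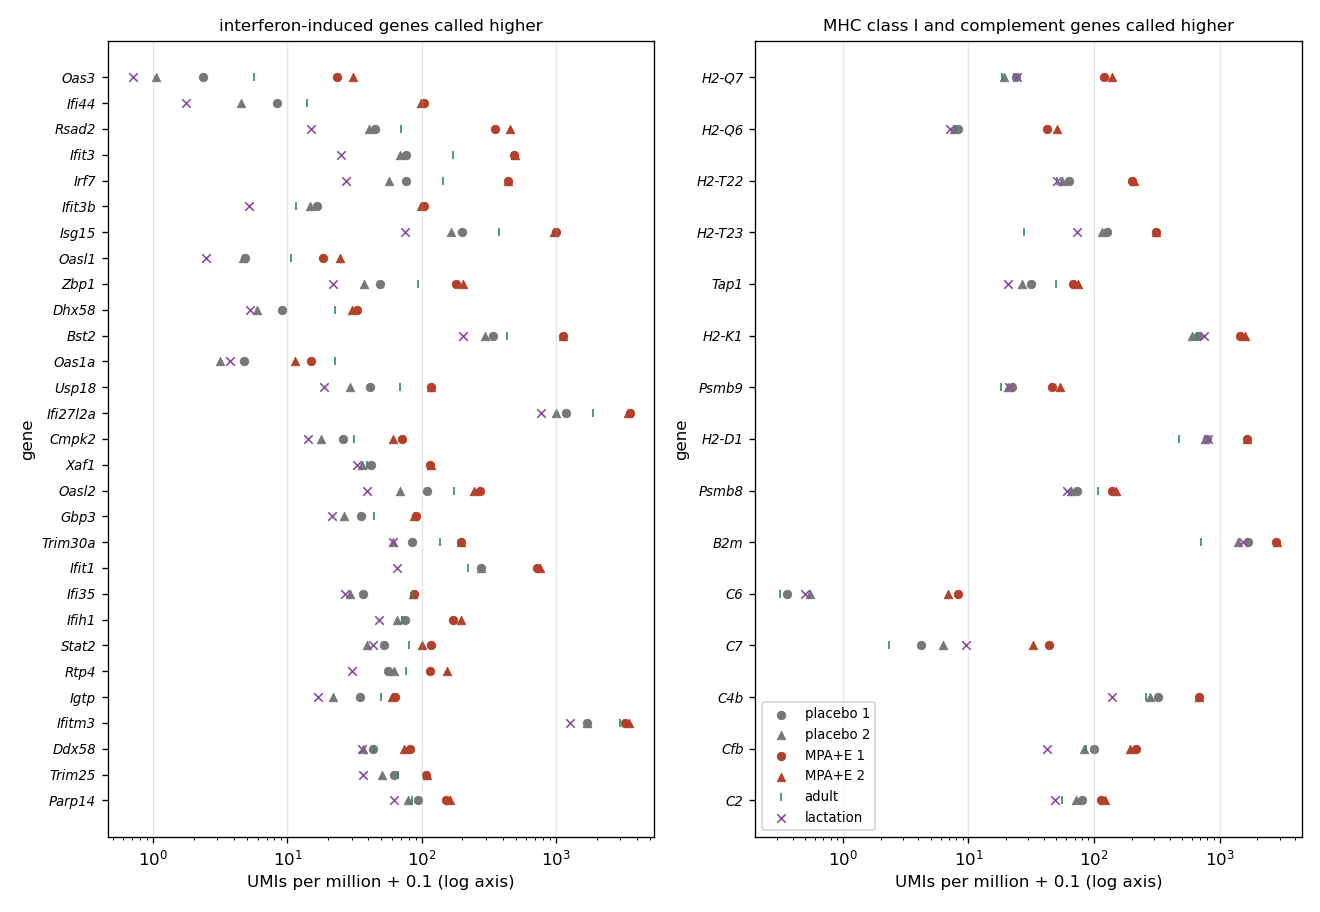
Level of raised interferon-induced genes (left) and each raised MHC class I or complement gene (right), in CPM plus 0.1 on a log axis, in the 2 placebo (grey) and 2 MPA+E (red) libraries and in the adult and lactation libraries (1 each). Both red points lie right of both grey points for every gene shown; for Isg15 the adult library lies between the arms at 374 CPM and the lactation library below both at 74.6 CPM.

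The gene for a type I interferon was itself raised. Ifnb1, which encodes interferon beta, had 19 and 19 UMIs with placebo and 266 and 496 UMIs with MPA+E, or 0.274 and 0.264 CPM with placebo and 3.06 and 5.44 CPM with MPA+E (log2 change 4.00, SE 0.42, adjusted p = 0.014). The call was lost without placebo 1 (adjusted p = 0.094) and without placebo 2 (0.090). The 20 other interferon ligand genes in the files had at most 9 UMIs each in any of the 4 libraries. Ifnb1 UMIs were found in 9 of 4843 and 9 of 5760 placebo fibroblasts, and in 109 of 5152 and 278 of 8697 MPA+E fibroblasts. These are 0.186% (95% exact binomial interval 0.0850 to 0.352, counting error only) and 0.156% (0.0715 to 0.296) with placebo, against 2.12% (1.74 to 2.55) and 3.20% (2.84 to 3.59) with MPA+E. With every cell thinned to 5000 UMIs the shares were 0.113% and 0.0971% against 0.884% and 2.00%, over 4412, 5152, 4752 and 7736 cells.

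Barcodes with an Rgs5 UMI below the fibroblast minimum served as a second cell type, since Rgs5 marks pericytes. Ifnb1 was found in 0 of 145 and 0 of 183 of them with placebo and in 1 of 161 and 0 of 324 with MPA+E, at median depths of 7420, 6780, 6740 and 4203 UMIs. The fibroblasts with an Ifnb1 UMI had a median of 335 and 290.3 interferon-list UMIs per 10000 in MPA+E 1 and 2, and the fibroblasts without one had 151 and 155. Genes outside that list were also higher in the cells with an Ifnb1 UMI: Greb1 stood at 193 and 159.8 CPM in them against 102 and 87.6 CPM in the others, and Ctla2a at 3298 and 3105 CPM against 1627 and 1298 CPM. Their own depth was higher, at a median of 21369 and 13142 UMIs. Ifnb1, the receptors, these cell counts and other genes named here outside the naming rule were picked after their values had been seen.

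Interferon-list UMIs were also counted cell by cell. With each cell thinned to 5000 UMIs, the median fibroblast held 36 and 32 interferon-list UMIs with placebo and 78 and 81 with MPA+E. The 25th percentile was 23 and 21 with placebo against 40 and 39 with MPA+E, and the 90th was 79 and 75 against 159 and 167. The 10th percentile was 16 and 15 with placebo and 21 and 20 with MPA+E. The unthinned medians were 92 and 74 against 234 and 149. Thinning left out 431 and 608 placebo cells and 400 and 961 MPA+E cells that were shallower than 5000 UMIs.

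**Figure D3:**
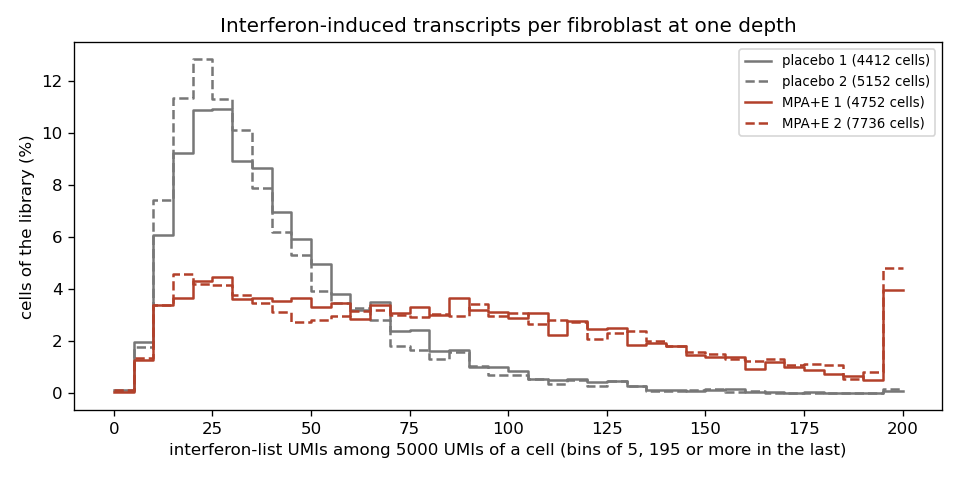
Interferon-list UMIs in each fibroblast after thinning to 5000 UMIs (x axis, bins of 5, the highest counts gathered in the last bin) against the share of the library's cells (y axis, %), for the 2 placebo (grey) and 2 MPA+E (red) libraries. Placebo cells gather around their medians of 36 and 32 UMIs, while MPA+E cells spread widely around medians of 78 and 81.

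Promoter sequences were read because so many raised genes were interferon-induced. The interferon-stimulated response element is bound by a complex that includes STAT2 and IRF9, and its core was searched as GAAANNGAAA on both strands (TTTCNNTTTC on the other), from 250 bases before to 50 after each RefSeq transcript start (mouse build GRCm38.p6). The core was present in 3.99% of the 27025 genes with a promoter in the RefSeq table and in 3.83% of the 11604 tested genes that matched it. Among raised genes 49 of 316 matched ones held it (15.5%), and among lowered genes 8 of 188 (4.26%). Of the raised interferon-list genes 15 of 23 held it (65.2%), near the 23 of 37 (62.2%) among all tested interferon-list genes. Of the raised genes outside that list 34 of 293 held it (11.6%). These include genes that interferon also induces, such as Ifi206 and Ifi208, and the MHC class I gene B2m. This search was made after the gene values had been seen, and a match is a match of letters, not a bound site.

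The promoters below show the core in genes that rose with MPA+E, with the matching bases in capitals. They were chosen for the range of their roles: Isg15, Ifit3, Rsad2 and Oas3 from the interferon list, and B2m, the shared chain of MHC class I, from outside it. Isg15 spans chr4:156200769-156201068 (minus strand), Ifit3 chr19:34583279-34583578 (plus strand), Rsad2 chr12:26456403-26456702 (minus strand), Oas3 chr5:120777610-120777909 (minus strand) and B2m chr2:122147437-122147736 (plus strand).
Isg15: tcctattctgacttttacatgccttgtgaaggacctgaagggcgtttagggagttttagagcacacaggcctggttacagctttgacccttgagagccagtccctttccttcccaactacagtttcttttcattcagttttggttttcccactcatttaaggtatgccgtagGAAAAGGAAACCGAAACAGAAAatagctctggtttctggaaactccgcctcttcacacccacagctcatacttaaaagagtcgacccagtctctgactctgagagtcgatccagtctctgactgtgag
Ifit3: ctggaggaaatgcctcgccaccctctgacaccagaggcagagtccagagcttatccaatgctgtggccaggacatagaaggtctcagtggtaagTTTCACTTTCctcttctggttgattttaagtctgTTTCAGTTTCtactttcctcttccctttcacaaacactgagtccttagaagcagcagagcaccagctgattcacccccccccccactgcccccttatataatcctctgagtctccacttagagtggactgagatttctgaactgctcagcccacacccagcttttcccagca
Rsad2: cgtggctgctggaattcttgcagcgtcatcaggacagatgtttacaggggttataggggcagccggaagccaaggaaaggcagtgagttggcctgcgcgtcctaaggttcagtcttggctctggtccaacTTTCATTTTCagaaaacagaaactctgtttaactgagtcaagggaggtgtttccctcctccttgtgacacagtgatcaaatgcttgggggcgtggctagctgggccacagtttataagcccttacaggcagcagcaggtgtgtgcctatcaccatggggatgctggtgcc
Oas3: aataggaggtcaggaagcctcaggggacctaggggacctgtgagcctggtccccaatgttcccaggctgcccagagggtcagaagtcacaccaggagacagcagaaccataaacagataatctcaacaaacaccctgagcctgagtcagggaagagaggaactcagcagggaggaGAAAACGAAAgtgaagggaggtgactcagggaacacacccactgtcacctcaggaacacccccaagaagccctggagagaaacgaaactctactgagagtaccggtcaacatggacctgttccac
B2m: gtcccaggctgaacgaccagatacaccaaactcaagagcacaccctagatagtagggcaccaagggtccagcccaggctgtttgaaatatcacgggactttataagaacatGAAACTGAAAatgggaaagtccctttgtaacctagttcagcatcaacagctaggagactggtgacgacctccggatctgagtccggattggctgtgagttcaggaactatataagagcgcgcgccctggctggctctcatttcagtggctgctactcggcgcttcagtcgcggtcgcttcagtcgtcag
Isg15 carries 3 overlapping copies between 78 and 66 bases before the transcript start, and Ifit3 carries 2, at 156 and 122 bases. Rsad2, Oas3 and B2m carry 1 copy each, at 120, 75 and 139 bases before the start.

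Elements of steroid receptors were searched in the same windows. The full estrogen response element GGTCANNNTGACC was in 0.0740% of all promoters, 2 of the 11604 tested genes (0.0172%), 0 of 316 raised genes and 0 of 188 lowered genes. The full glucocorticoid and progesterone response element GAACANNNTGTTC was in 0.0555% of all promoters, 2 of the 11604 tested genes (0.0172%), and likewise 0 of 316 and 0 of 188. Looser forms were searched on both strands likewise. ACANNNTGT was in 7.91% of raised and 7.45% of lowered genes, against 5.42% of tested genes and 7.90% of all promoters. GGTCANNNNNNACC was in 0.949% and 0.532%, against 0.957% and 1.01%. The single arm TGACC, which lies within the full estrogen element, was in 45.9% and 40.4%, against 42.1% and 43.6%. None of these shares was tested.

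Antigen presentation by MHC class I rose with the interferon genes. Of 24 tested genes 10 were higher and 0 lower, with a median log2 change of 0.49. The non-classical class I genes H2-Q7 and H2-Q6 changed most. H2-Q7 stood at 23.9 and 18.9 CPM with placebo and 119.6 and 139 CPM with MPA+E (log2 change 2.61, SE 0.16, adjusted p = 0.0069), and H2-Q6, a close sequence relative whose reads may be split with it, at 8.09 and 7.53 CPM with placebo and 42.1 and 51.03 CPM with MPA+E (log2 change 2.59). H2-T22 and H2-T23 rose by 1.81 and 1.37 on the log2 scale. The classical genes H2-K1 and H2-D1 rose by 1.27 and 1.10, B2m by 0.90, the peptide transporter Tap1 and the immunoproteasome subunits Psmb8 and Psmb9 were also called, and each of the 10 had both hormone libraries above both placebo libraries.

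Complement, the blood and tissue protein cascade that tags and lyses targets, gave calls among its early and late components. Of 26 tested components 5 rose and 1 fell (23.1% called, against 4.33% of all tested genes), and the list's median log2 change was -0.0064. C7, which joins the membrane attack complex, stood at 4.103 and 6.13 CPM with placebo and 43.8 and 32.2 CPM with MPA+E (log2 change 2.88, SE 0.27, adjusted p = 0.011), and C6, its neighbour in that complex, at 0.259 and 0.444 CPM with placebo and 8.205 and 6.77 CPM with MPA+E (log2 change 4.40). C4b of the classical pathway measured 322 and 281 CPM with placebo and 681 and 685 CPM with MPA+E (log2 change 1.20, SE 0.11, adjusted p = 0.011). Cfb of the alternative pathway rose by 1.16 and C2 by 0.64, while Clu, a complement inhibitor, was lower at 16.5 and 16.3 CPM with placebo and 9.802 and 10.4 CPM with MPA+E (log2 change -0.69, SE 0.11, adjusted p = 0.043).

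Cytokine genes were called in both directions, 10.0% of the chemokine list and 9.09% of the interleukin list against 4.33% of all tested genes. Of 20 tested chemokine genes 1 rose, Cxcl16, at 24.5 and 23.3 CPM with placebo and 90.9 and 74.1 CPM with MPA+E (log2 change 1.80, SE 0.11, adjusted p = 0.0069), and 1 fell, the scavenger receptor Ackr2 (log2 change -0.68). Ccl2, which attracts monocytes, ranged widely at 751 and 1053 CPM with placebo and 242 and 576 CPM with MPA+E, with adjusted p = 0.31. Among 44 interleukins and receptors 2 rose and 2 fell. Il33, an alarmin of barrier tissues, stood at 94.5 and 87.8 CPM with placebo and 26.4 and 29.4 CPM with MPA+E (log2 change -1.69, SE 0.12, adjusted p = 0.0072), Il13ra1 fell by 1.51 on the log2 scale, and Il1r2, a decoy receptor, and Il16 rose by 1.03 and 1.40.

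Immune cell markers were higher in sum with MPA+E, and their part in these results was not tested. The summed level of the immune list was 5.47 and 4.95 CPM with placebo and 8.92 and 11.5 CPM with MPA+E, against the 18132 and 18604 CPM of the interferon list. Of 13 tested immune markers 1 was called, the B cell gene Cd79b (0.878 and 0.721 CPM with placebo and 3.57 and 4.01 CPM with MPA+E). Ptprc stood at 0 through the gate, and the macrophage gene C1qa was at 0.101 and 0.153 CPM with placebo and 0.230 and 0.296 CPM with MPA+E.

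The steroid receptors themselves moved in opposite directions. Of 13 tested receptors and co-regulators, Pgr rose and Esr1 fell. Pgr, the progesterone receptor gene and a textbook estrogen target, stood at 9.59 and 13.7 CPM with placebo and 41.4 and 63.6 CPM with MPA+E (log2 change 2.18, SE 0.33, adjusted p = 0.035). Esr1, which encodes estrogen receptor alpha, stood at 71.8 and 64.7 CPM with placebo and 17.5 and 23.5 CPM with MPA+E (log2 change -1.71, SE 0.19, adjusted p = 0.016). The glucocorticoid receptor gene Nr3c1 had a log2 change of -0.42, with adjusted p = 0.14.

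Among 19 tested estrogen-responsive genes 3 rose and 1 fell (21.1% called, against 4.33% of all tested genes), and the list's median was 0.08. Greb1, an estrogen receptor co-factor that estrogen induces, stood at 6.03 and 6.82 CPM with placebo and 105 and 90.6 CPM with MPA+E (log2 change 3.93, SE 0.14, adjusted p = 0.0037). Ccn5, a secreted matrix protein, stood at 31.2 and 25.96 CPM with placebo and 221 and 166 CPM with MPA+E (log2 change 2.77, SE 0.15, adjusted p = 0.0066), and Pgr was the third. Igf1, an estrogen target in the uterus, went the other way, at 259 and 234 CPM with placebo and 90.6 and 93.7 CPM with MPA+E (log2 change -1.41, SE 0.10, adjusted p = 0.0074). These 4 genes kept both hormone libraries on one side of both placebo libraries, as did 21.2% (above) and 22.4% (below) of all tested genes.

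Genes that glucocorticoid and progestin receptors both induce gave 4 rises and 0 falls of 22 tested (18.2% called, against 4.33% of all tested genes). Fkbp5, a chaperone of steroid receptors, stood at 14.3 and 15.03 CPM with placebo and 35.6 and 31.2 CPM with MPA+E (log2 change 1.19, SE 0.11, adjusted p = 0.011), and Sult1a1, a sulfotransferase, rose by 1.22. Klf15 and Hif3a rose from low levels (1.35 and 2.11 CPM with placebo and 6.54 and 6.94 CPM with MPA+E for Klf15). Other well-known members were not called: Zbtb16 at 26.7 and 55.3 CPM with placebo and 71.6 and 89.3 CPM with MPA+E (adjusted p = 0.29), Tsc22d3 at 67.8 and 150.1 CPM with placebo and 122 and 202 CPM with MPA+E (0.62) and Per1 at 39.1 and 60.9 CPM with placebo and 33.4 and 69.7 CPM with MPA+E (0.97). The list's median of 0.13 turned negative without placebo 1 (-0.21) and without MPA+E 2 (-0.22). Its summed level was higher in replicate 2 of both arms, at 15052 and 26172 CPM with placebo and 10620 and 21666 CPM with MPA+E. The fit behind these calls did not use the replicate number. Between same-numbered libraries Zbtb16 and Tsc22d3 were higher with MPA+E in both replicates, and Per1 was lower in replicate 1 and higher in replicate 2.

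Of 16 tested enzymes that make or clear steroids 5 rose and 0 fell (31.3% called, against 4.33% of all tested genes). The list's median log2 change was 0.10, and 10 of the 16 had a positive value. Akr1c14, a 3-alpha-hydroxysteroid dehydrogenase that reduces progesterone metabolites, stood at 51.7 and 45.2 CPM with placebo and 104 and 105 CPM with MPA+E (log2 change 1.13, SE 0.10, adjusted p = 0.0096). Hsd11b1, which reactivates glucocorticoids, stood at 141 and 135 CPM with placebo and 237 and 235 CPM with MPA+E (log2 change 0.78, SE 0.10, adjusted p = 0.022), and Hsd11b2, which inactivates them, rose by 1.37 at levels of 2.48 to 7.30 CPM. Cyp7b1, an oxysterol and steroid hydroxylase, rose by 1.34. Sult1e1, the estrogen sulfotransferase, had under 0.1 CPM with placebo and 3.88 and 1.65 CPM with MPA+E.

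Other hormone pathways moved in part. The thyroid hormone deiodinases Dio2, which activates the hormone, and Dio3, which inactivates it, both rose, Dio2 at 3.73 and 3.36 CPM with placebo and 8.94 and 7.81 CPM with MPA+E (log2 change 1.25, SE 0.12, adjusted p = 0.011) and Dio3 at 0.2303 and 0.236 CPM with placebo and 11.03 and 7.32 CPM with MPA+E. The clock repressor Nr1d1 was the remaining call of 21 genes tested. In the retinoic acid pathway 3 of 20 rose and 1 fell. Crabp1, a retinoic acid binding protein, stood at 39.7 and 26.05 CPM with placebo and 91.8 and 92.4 CPM with MPA+E (log2 change 1.51, SE 0.18, adjusted p = 0.019), and the synthetic enzymes split, with Aldh1a1 at 79.8 and 69.7 CPM with placebo and 141 and 147 CPM with MPA+E (log2 change 0.96, SE 0.10, adjusted p = 0.015) and Aldh1a3 at 97.98 and 78.1 CPM with placebo and 23.8 and 25.4 CPM with MPA+E (log2 change -1.82, SE 0.12, adjusted p = 0.0072). Stra6, the retinol uptake receptor, rose by 0.84.

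**Figure D4:**
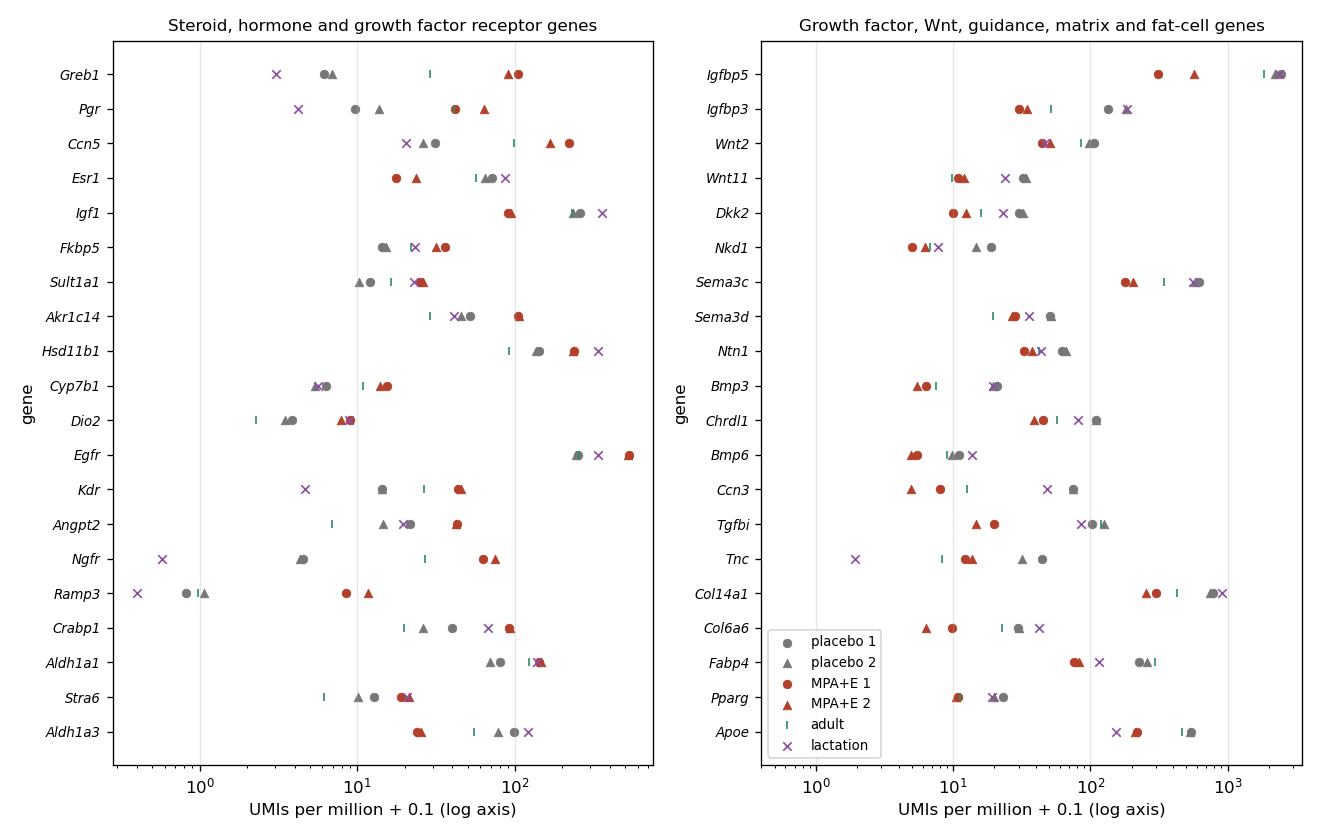
Level of named genes in CPM plus 0.1 (log axis) in the placebo (grey), MPA+E (red), adult and lactation libraries, for steroid, hormone and growth factor receptor genes (left) and for growth factor, Wnt, guidance, matrix and fat-cell genes (right). Greb1 and Ngfr show the widest gaps to the right and Ccn3 the widest gap to the left; every gene shown has both red points on one side of both grey points.

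The insulin-like growth factor axis leaned to lower levels by its calls and median, though not in every member. Of 17 tested genes 0 were higher and 4 lower (23.5% called, against 4.33% of all tested genes). The median log2 change was -0.43, and 6 of the 17 had a positive value. Igfbp5, which binds IGF in the matrix, stood at 2442 and 2202 CPM with placebo and 309 and 572 CPM with MPA+E (log2 change -2.37, SE 0.34, adjusted p = 0.032). Igfbp3, the main carrier of IGF in blood, stood at 135 and 181 CPM with placebo and 30.1 and 34.2 CPM with MPA+E (log2 change -2.29, SE 0.22, adjusted p = 0.012). Pappa, a protease that frees IGF from its binding proteins, was lower at 7.98 and 6.85 CPM with placebo and 2.07 and 1.54 CPM with MPA+E, and with Igf1 the list held losses of a ligand, of binding proteins and of the protease. The summed level of the whole list was 7859 and 7739.9 CPM with placebo and 7313 and 7283 CPM with MPA+E.

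Growth factor receptors and ligands were called in both directions. Egfr, the receptor of EGF and amphiregulin, stood at 249 and 243 CPM with placebo and 526 and 517 CPM with MPA+E (log2 change 1.09, SE 0.11, adjusted p = 0.012). It was the single call of 15 in its list (6.67%, against 4.33% of all tested genes). That list's median of -0.17 turned positive without placebo 2 (0.09) and without MPA+E 1 (0.04). Kdr, the main VEGF receptor, stood at 14.2 and 14.1 CPM with placebo and 43.2 and 45.2 CPM with MPA+E (log2 change 1.65, SE 0.11, adjusted p = 0.007), and Angpt2, a ligand that loosens vessels, at 21.4 and 14.4 CPM with placebo and 43 and 41.9 CPM with MPA+E (log2 change 1.27, SE 0.17, adjusted p = 0.025). In that list of 25 genes Vegfd rose by 0.81, and the angiopoietin receptor Tek and the semaphorin and VEGF co-receptor Nrp2 fell by 0.94 and 0.85 on the log2 scale. Ngfr, the low-affinity neurotrophin receptor, stood at 4.41 and 4.202 CPM with placebo and 62.98 and 74.8 CPM with MPA+E (log2 change 4.02, SE 0.16, adjusted p = 0.0037), while the neurotrophic receptors Ntrk3 and Gfra2 were called lower. The FGF list gave 0 higher and 2 lower of 17 (11.8% called, against 4.33% of all tested genes). These were the ligands Fgf18 (36.1 and 43.6 CPM with placebo and 16.5 and 16.6 CPM with MPA+E) and Fgf9.

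Heparin-binding factors and their cell-surface proteoglycans were split, with 3 of 12 higher and 3 lower. The syndecans Sdc3 and Sdc1 and the glypican Gpc1 rose, Sdc3 at 4.25 and 3.41 CPM with placebo and 13.5 and 13.9 CPM with MPA+E (log2 change 1.85, SE 0.13, adjusted p = 0.0072). The growth factor Ptn (pleiotrophin) and the glypicans Gpc3 and Gpc6 fell, Ptn at 81.9 and 62.6 CPM with placebo and 41.1 and 38.3 CPM with MPA+E (log2 change -0.85, SE 0.12, adjusted p = 0.028). Of 18 imprinted growth genes, Zim1 and Grb10 were lower and 0 were higher.

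The Wnt pathway, a set of secreted lipid-bearing ligands that guide growth and fate, was lower in 8 and higher in 2 of 42 tested members. Its median log2 change was -0.52, and 34 of the 42 had a negative value. Wnt2 stood at 107 and 98.4 CPM with placebo and 44.02 and 51.1 CPM with MPA+E (log2 change -1.09, SE 0.13, adjusted p = 0.02) and Wnt11 at 32.2 and 33.95 CPM with placebo and 10.7 and 11.98 CPM with MPA+E (log2 change -1.53, SE 0.14, adjusted p = 0.01). Wnt1 and Wnt6 fell at levels under 4 CPM. Dkk2 and Sfrp2, which antagonise Wnts, fell by 1.47 and 0.93 on the log2 scale. Another secreted antagonist, Wif1, was higher, at 0.115 and 0.1803 CPM with placebo and 1.02 and 0.6801 CPM with MPA+E (log2 change 2.51, SE 0.40, adjusted p = 0.039). Nkd1, a feedback target of the pathway, stood at 18.9 and 14.5 CPM with placebo and 4.91 and 6.19 CPM with MPA+E (log2 change -1.57, SE 0.19, adjusted p = 0.02). The agonists of the R-spondin family split, with Rspo3 lower and Rspo2 higher.

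Guidance cues, which steer axons and vessels, gave 0 higher and 6 lower of 32 tested (18.75% called, against 4.33% of all tested genes). The class 3 semaphorins Sema3c, Sema3d, Sema3e and Sema3b, the semaphorin Sema6a and the netrin Ntn1 made up the calls. Sema3c stood at 619 and 576 CPM with placebo and 180.3 and 204 CPM with MPA+E (log2 change -1.62, SE 0.14, adjusted p = 0.0094), Sema3d at 50.8 and 51.2 CPM with placebo and 28.1 and 26.6 CPM with MPA+E and Ntn1 at 62.4 and 66.2 CPM with placebo and 32.9 and 37.7 CPM with MPA+E. The list's summed level was 1420.1 and 1273 CPM with placebo and 802 and 802 CPM with MPA+E, with no overlap between the arms. Sema3c alone made up a large part of that sum and of its fall. The list's median log2 change was -0.20, and 11 of the 32 had a positive value.

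The TGF-beta and BMP pathway had 1 of 41 higher and 5 lower, where 2.69% and 1.64% of all tested genes were higher and lower. Tgfbr2, the type II receptor, rose by 0.63 on the log2 scale. The ligand Bmp3 stood at 20.9 and 19.3 CPM with placebo and 6.25 and 5.34 CPM with MPA+E (log2 change -1.78, SE 0.10, adjusted p = 0.0069), the BMP antagonist Chrdl1 at 110.4 and 109.7 CPM with placebo and 45.3 and 38.5 CPM with MPA+E (log2 change -1.39, SE 0.10, adjusted p = 0.0074), and the ligand Bmp6, the activin receptor Acvr2a and the signal carrier Smad3 were also lower. The Hedgehog list gave 1 call of 14, the co-receptor Cdon (log2 change -1.08), and the Notch and Hippo list 1 of 19, the Notch ligand Jag1 (-0.67). These are 7.14% and 5.26% of the lists, 1 gene each, against 4.33% of all genes.

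The main fibrillar collagens were not called. Col1a1 measured 7082 and 6155 CPM with placebo and 9367 and 7117 CPM with MPA+E (adjusted p = 0.41) and Col3a1 12670.0 and 10018 CPM with placebo and 16440.0 and 11362 CPM with MPA+E (0.56). The minor fibrillar chain Col11a1 was the one call of 10, at 0.633 and 0.555 CPM with placebo and 3.82 and 3.26 CPM with MPA+E. Of 27 other collagen chains 4 rose and 3 fell. Col13a1, a membrane collagen of adhesion sites, stood at 18.8 and 15.3 CPM with placebo and 39.6 and 44.5 CPM with MPA+E (log2 change 1.32, SE 0.13, adjusted p = 0.012). Col14a1, which sits on fibril surfaces, stood at 783 and 748 CPM with placebo and 300.2 and 255 CPM with MPA+E (log2 change -1.46, SE 0.12, adjusted p = 0.0086), and Col6a6, a microfibril chain, fell by 1.90 on the log2 scale.

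Enzymes that modify collagen rose in 4 of 31 and fell in 1. Tgm2, which crosslinks proteins through glutamine, stood at 22 and 30.5 CPM with placebo and 181 and 277 CPM with MPA+E (log2 change 3.14, SE 0.33, adjusted p = 0.014). P4ha3, a proline hydroxylase subunit, stood at 13.8 and 11.04 CPM with placebo and 54.2 and 46.2 CPM with MPA+E (log2 change 2.03, SE 0.11, adjusted p = 0.0069), and the lysine hydroxylase Plod2 and the crosslinker Lox rose by 1.20 and 0.64. Pcolce2, an enhancer of procollagen cleavage, was lower at 744 and 736 CPM with placebo and 326 and 328 CPM with MPA+E (log2 change -1.17, SE 0.12, adjusted p = 0.012). Eln, the elastin gene, rose by 0.73, while the elastic fibre proteins Adamtsl4 and Efemp1 fell by 1.85 and 0.73. The calls of Lox, Eln and Efemp1 rested on all 4 libraries and were lost without any 1 of them.

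Matricellular proteins, secreted proteins that tune how cells read the matrix, had 3 of 32 higher and 4 lower. Ccn3 stood at 74.5 and 74.5 CPM with placebo and 7.89 and 4.86 CPM with MPA+E (log2 change -3.55, SE 0.22, adjusted p = 0.007) and its relative Ccn5 moved the opposite way. Tgfbi, an integrin-binding protein induced by TGF-beta, stood at 102 and 126 CPM with placebo and 19.7 and 14.6 CPM with MPA+E (log2 change -2.74, SE 0.20, adjusted p = 0.0074). Tnc (tenascin C) fell by 1.53 on the log2 scale, and Spon1 (F-spondin) stood at 155 and 130.1 CPM with placebo and 509 and 510.3 CPM with MPA+E (log2 change 1.85, SE 0.11, adjusted p = 0.007).

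Adhesion genes fell in 7 of 32 and rose in 3. The collagen-binding integrins Itga11 and Itga2 fell by 1.36 and 1.36, as did Itga9, Vcam1, Alcam, Chl1 and Cadm3, whereas Ncam1 (15.5 and 15.6 CPM with placebo and 44.1 and 31.7 CPM with MPA+E), Cadm1 and Itgb3 rose. Among 38 matrix proteases and inhibitors 4 rose, Serpine2, Adamts15, Timp1 and Mmp15, and 0 fell (10.5% called, against 4.33% of all tested genes). That list as a whole did not lean up: its median log2 change was -0.06, and 18 of the 38 had a positive value. The basement membrane genes Agrn and Lamc3 rose by 1.08 and 1.07. In the leucine-rich and large proteoglycans (17 tested) and hyaluronan genes (16) 0 were called by edgeR, against 3 and 3 at an unadjusted p under 0.05, 1 and 1 by DESeq2 and 0 and 0 by limma-voom. Their members with the smallest p were Prg4 (log2 change 1.24, adjusted p = 0.11) and Vcan (0.30, 0.20).

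Of 40 tested fat-cell genes 6 were lower and 1 was higher. The list as a whole had no steady direction: 17 of the 40 had a positive log2 change, and the median of -0.15 became 0.00089 without placebo 2. Fabp4, the fatty acid carrier of preadipocytes and adipocytes, stood at 225 and 258 CPM with placebo and 75.5 and 82.4 CPM with MPA+E (log2 change -1.60, SE 0.16, adjusted p = 0.012). Pparg, the master regulator of fat-cell formation, stood at 23.2 and 19.8 CPM with placebo and 10.7 and 10.4 CPM with MPA+E (log2 change -1.01, SE 0.09, adjusted p = 0.011), and Zfp423, which acts upstream of it, fell by 0.93. Apoe stood at 538 and 534 CPM with placebo and 220.2 and 213 CPM with MPA+E (log2 change -1.30, SE 0.11, adjusted p = 0.0093), and Fabp5 and the lipase Mgll were lower too. Gpam, the first enzyme of triglyceride synthesis, was the exception, at 15.8 and 13.8 CPM with placebo and 36.7 and 33.01 CPM with MPA+E (log2 change 1.24, SE 0.09, adjusted p = 0.0074). The markers of mature adipocytes added up to 16.2 and 12.5 CPM with placebo and 6.67 and 3.33 CPM with MPA+E, and the part of such RNA in these falls was not tested.

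Of 46 tested detoxifying enzymes 4 rose and 0 fell (8.70% called, against 4.33% of all tested genes). The list as a whole did not lean up: its median log2 change was -0.03, and 20 of the 46 had a positive value. Gpx3, a secreted glutathione peroxidase, stood at 547 and 621 CPM with placebo and 2597 and 2459 CPM with MPA+E (log2 change 2.12, SE 0.16, adjusted p = 0.0074), and the alcohol and retinol dehydrogenase Adh1 at 30.5 and 30.9 CPM with placebo and 77.8 and 72.8 CPM with MPA+E (log2 change 1.30, SE 0.10, adjusted p = 0.0074). Adh7 and Aldh1a1 were the others. Among 35 ion and water transport genes 2 rose and 5 fell. The sodium pump subunit Atp1b1 stood at 26.9 and 26.2 CPM with placebo and 5.14 and 3.47 CPM with MPA+E (log2 change -2.62, SE 0.18, adjusted p = 0.0072). Of 37 G protein-coupled receptors and their partners 1 rose and 3 fell. Ramp3, which reshapes the calcitonin-like receptor into an adrenomedullin receptor, stood at 0.7198 and 0.971 CPM with placebo and 8.43 and 11.6 CPM with MPA+E (log2 change 3.57, SE 0.29, adjusted p = 0.0093).

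Genes of the machinery that all cells share were counted against the 4.33% called among all tested genes. In oxidative phosphorylation (71 tested), secretory folding (72), ribosomal proteins (75) and DNA replication with mitosis (55), 0 genes were called by edgeR. At an unadjusted p under 0.05 there were 2, 2, 0 and 0, DESeq2 called 0, 1, 0 and 0, and limma-voom called 0 in each. In the same order, 55, 40, 66 and 24 members had a positive log2 change. The medians were 0.06, 0.02, 0.09 and -0.01, against 0.01 over all tested genes. Ribosomal protein and oxidative phosphorylation genes thus leaned up by small amounts. The members with the smallest p were Uqcrq (log2 change 0.34, adjusted p = 0.13), Ssr3 (0.41, 0.13), Rpl31 (0.25, 0.32) and Mcm2 (0.42, 0.28). Single calls, 2.27% to 3.45% of each list and so near the share of all genes, came from glycolysis and hypoxia (Car12), amino acid metabolism (Psat1, log2 change 0.77), cholesterol (Npc2, 0.83), ribosome assembly (Eif4ebp1, 0.71), cell cycle inhibitors (Gas6, 1.56), heat shock (Hspa1b, 0.90) and the cytoskeleton (Myh10, -0.64).

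Markers of fibroblast states came from the study's own clusters, so their direction is not independent evidence. Of 20 progenitor markers 7 fell and 1 rose, with a median of -0.60. Smpd3, a sphingomyelinase, stood at 178 and 183 CPM with placebo and 28.3 and 34.1 CPM with MPA+E (log2 change -2.52, SE 0.16, adjusted p = 0.007), and Dact2, Wnt2, Sema3c, Igfbp5, Dpp4 and Tmem100 were also lower, while Ly6a, which interferon also induces, rose by 0.88. Of 12 preadipocyte markers 3 fell. The matrix-remodelling markers had 3 of 10 higher and 1 lower, the lobular markers 1 of 10 higher and 1 lower, and the adipogenesis-regulatory markers 2 of 12 higher and 2 lower. Hox and limb position genes gave 0 edgeR calls of 33 (4 at an unadjusted p under 0.05, 1 by DESeq2, 0 by limma-voom), with Tbx5 lowest in p (log2 change -0.66, adjusted p = 0.068), and of 48 mesenchymal transcription factors 3 rose, Snai2 and Nr2f1 among them, and 3 fell, Runx1, Pparg and Sox4.

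The largest single changes among genes with a mean of at least 5 CPM crossed these groups. Ctla2a, a cathepsin inhibitor, stood at 8.05 and 11.4 CPM with placebo and 1674 and 1375 CPM with MPA+E (log2 change 7.29, SE 0.30, adjusted p = 0.0037), with its sequence relative Ctla2b at 0.0144 and 0.0416 CPM with placebo and 5.22 and 5.75 CPM with MPA+E. The interferon-inducible DNA sensor relatives Ifi208 and Ifi206 rose by 4.93 and 4.57 on the log2 scale and the apolipoprotein L gene Apol6 by 4.25, each from about 1 CPM or less, and these families share sequence. The lowest called ones were Ccn3, Gap43, a growth cone protein (16.5 and 16.4 CPM with placebo and 1.74 and 2.76 CPM with MPA+E), Tgfbi, Atp1b1, Krt19 and Smpd3.

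Among genes in none of the lists, 301 rose and 170 fell. Apol9a, whose reads may be split with its close relative Apol9b, stood at 8.59 and 5.71 CPM with placebo and 54.3 and 58.6 CPM with MPA+E (log2 change 3.004, adjusted p = 0.007), and Plac8 at 479.9 and 489 CPM with placebo and 1579 and 1870.0 CPM with MPA+E (log2 change 1.85, SE 0.17, adjusted p = 0.011). Heph, the iron oxidase hephaestin, stood at 22.5 and 18.5 CPM with placebo and 93.1 and 84.3 CPM with MPA+E (log2 change 2.13, SE 0.10, adjusted p = 0.0058), Nos1, a nitric oxide synthase, at 15.4 and 9.82 CPM with placebo and 45.4 and 57.99 CPM with MPA+E (log2 change 2.07, SE 0.24, adjusted p = 0.018), and Nexmif at 8.23 and 5.64 CPM with placebo and 50.01 and 40.9 CPM with MPA+E (log2 change 2.73, SE 0.17, adjusted p = 0.007). Phf11b, Nrk, Pnp2, Prrg3, Slfn2, St3gal5 (the enzyme that makes ganglioside GM3) and Znhit6 completed the 12 largest among those of at least 20 CPM, with log2 changes of 1.70 to 2.08. The largest falls began with Aif1l (44.3 and 38.5 CPM with placebo and 11.1 and 15.04 CPM with MPA+E), Fndc1 (642 and 640.1 CPM with placebo and 251 and 229 CPM with MPA+E) and the proprotein convertase Pcsk6 (144 and 152 CPM with placebo and 71.8 and 45.3 CPM with MPA+E). They went on with Stxbp6, Rcan2, Limch1, the kinase scaffold Akap12, Qpct, Rftn1, Enpp3, Lurap1l and Cmah at log2 changes of -1.30 to -1.18.

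Markers of other cells were counted in the gated fibroblasts, and some moved. Luminal epithelial markers had 2 of 10 lower, Krt19 (29.8 and 26 CPM with placebo and 4.92 and 4.41 CPM with MPA+E) and Aldh1a3, and their summed level was 314 and 290.1 CPM with placebo and 203 and 189.5 CPM with MPA+E, with Epcam at 0 through the gate and Krt8 at 0.0432 to 0.0987 CPM. Basal epithelial and keratinocyte markers had 1 of 11 lower, Oxtr (3.69 and 2.32 CPM with placebo and 0.988 and 0.998 CPM with MPA+E), and summed to 91.6 to 129 CPM with the arms overlapping. Endothelial markers had 2 higher (Kdr, Vwf) and 2 lower (Tek, Plvap) of 11, with Pecam1 at 0 through the gate. They summed to 119.5 and 112.8 CPM with placebo and 97.2 and 99.3 CPM with MPA+E. Pericyte markers had Abcc9 and Kcnj8 lower of 12, with Rgs5 at 0 through the gate. Their sums were 129 and 167 CPM with placebo and 101 and 158 CPM with MPA+E, so the arms overlapped. Schwann and muscle markers gave 0 edgeR calls of 9 and 7 (1 each at an unadjusted p under 0.05, 0 by DESeq2 or limma-voom), where Mbp and Tnnt3 had the smallest p (adjusted p = 0.26 and 0.24), and the Schwann markers summed to 367 to 434 CPM with the arms overlapping. The part of such cells in the results was not tested.

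Untreated stages of wild-type C57BL/6 females were summed under the same gate. The stage libraries held 1 library each, so no test was made, and their median depth per fibroblast was lowest in pregnancy, with 3990 UMIs, and 5805 in the adult, 6663 at puberty, 7105 for lactation and 7293 for involution. Pregnancy, at day 14.5, was set against the adult virgin at 9 weeks as a log2 ratio of CPM plus 1. The genes had a mean of at least 5 CPM in the hormone libraries. That mean includes MPA+E, so a raised gene can pass it and still be low in the stages. Ramp3, for example, stood at 0.880 CPM in the adult and 2.88 in pregnancy. The shares of raised genes and of all genes below are therefore not like for like. Some markers of other cells were higher in the pregnancy library. Basal epithelial and keratinocyte markers summed to 365 CPM there and 85.5 CPM in the adult, and pericyte and smooth muscle markers to 405 and 80.8 CPM. The part of such RNA in the ratios was not tested. The 279 raised genes had a median ratio of 0.00 and the 193 lowered genes of 0.05, against -0.03 for all 9460. Of the raised genes 12 were at least 2-fold above the adult in pregnancy (4.30%, against 0.550% of all), among them Ctla2a, Crabp1, Angpt2, Col13a1, Ramp3, Eln and H2-Q7, and 4 were at least 2-fold below it (1.43%, against 0.159% of all), namely Tgm2, Ngfr, Ptpn5 and Hspa1b.

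Lactation, at day 10, gave another picture, which was examined after the values had been seen. The 279 raised genes had a median log2 ratio of lactation to adult of -0.44, against 0.06 for all genes, and 78 of them (28.0%) were at least 2-fold lower in lactation, against 2.52% of all, while 23 (8.24%) were at least 2-fold higher, against 4.36% of all. The 193 lowered genes had a median of 0.28, with 21 (10.9%) at least 2-fold higher and 11 (5.70%) at least 2-fold lower. The interferon list carried a part of this, with a median of -1.06 over 46 genes, 25 of them at least 2-fold lower and 0 at least 2-fold higher. Outside the interferon and MHC lists 54 of 239 raised genes (22.6%) were at least 2-fold lower. Greb1 stood at 28.6 CPM in the adult and 2.94 in lactation, Pgr at 41.1 and 4.08, Ngfr at 26.7 and 0.476, and Ifit3 at 169.7 and 25.04. Milk protein transcripts made up 0.0837% of the UMIs of the lactation fibroblasts and 9.48e-06% of those of the adult. In involution, at day 4, the raised genes had a median log2 ratio to the adult of -0.01 against -0.04 for all genes, with 29 (10.4%) at least 2-fold higher and 37 (13.3%) at least 2-fold lower, against 3.90% and 1.89% of all. The lowered genes had a median of 0.06 there, with 14 (7.25%) higher and 8 (4.15%) lower. In puberty, at 4 weeks of age, the raised genes had a median of -0.14 against -0.10 for all, with 2 (0.717%) at least 2-fold higher and 15 (5.38%) at least 2-fold lower, against 0.529% and 0.729% of all. The lowered genes had a median of 0.03, with 7 (3.63%) higher and 2 (1.04%) lower.

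**Figure D5:**
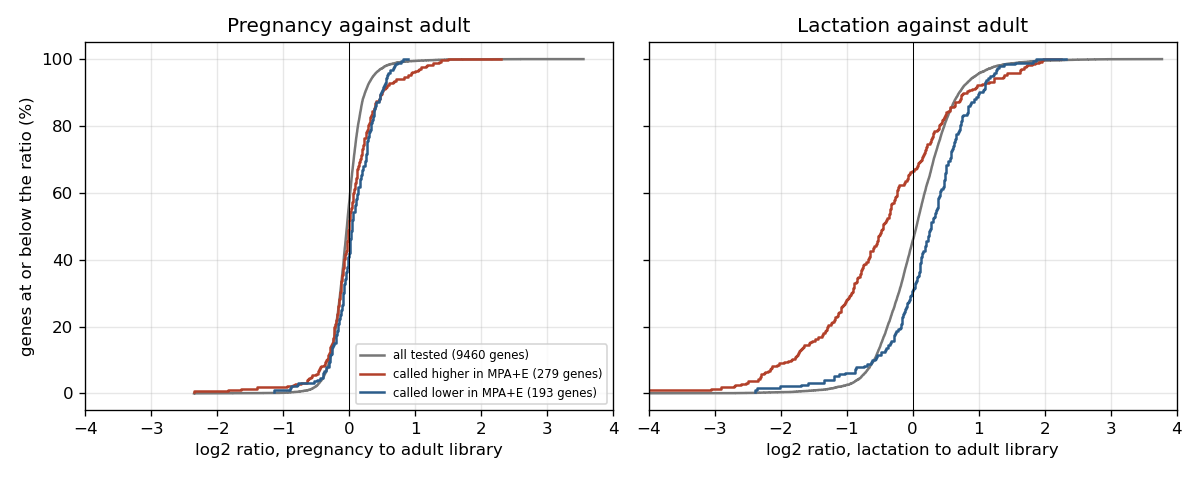
Cumulative share of genes (y axis, %) by log2 ratio of pregnancy to adult (left) and of lactation to adult (right), for all tested genes of at least 5 CPM (grey) and for genes called higher (red) or lower (blue) in MPA+E. The 3 curves run close together for pregnancy; for lactation the red curve lies to the left, with a median of -0.44, and the blue curve to the right, with a median of 0.28.

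The adult library lay between the arms, above both placebo and below both MPA+E libraries, for 246 of the 421 raised genes, and between them in the opposite order for 166 of the 257 lowered genes. Greb1 stood at 28.6 CPM in the adult, between 6.82 CPM in the higher placebo library and 90.6 CPM in the lower MPA+E library. Tgm2 stood at 104 CPM, Ccn5 at 98.8, Ifit3 at 169.7 and Gas6 at 349.8, each above both placebo libraries and below both MPA+E libraries. Others stayed near placebo: Egfr stood at 253 CPM in the adult, Heph at 22.7, Ctla2a at 12.9 and Ramp3 at 0.8802. Of the lowered genes, Ccn3 was at 12.5 CPM in the adult and 48.1 in lactation, while Tgfbi at 119 and Igfbp5 at 1829 CPM were near placebo. The same count was not made over all tested genes, and the arms of called genes stand apart by selection. These placements are descriptions over 1 library from another experiment.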

How the data were processed

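The values are UMI counts per gene and barcode in filtered matrices that the authors deposited. The submitters' processing notes name Cell Ranger 6.1.2 and build mm10. No normalization had been applied. Fibroblast barcodes were gated as described, without a doublet caller (removing top Scrublet scorers was an alternative), and counts were summed per library. Genes passing filterByExpr were scaled by TMM and tested with edgeR 4.0.16 (R 4.3.3), quasi-likelihood F test, 2 libraries against 2, with Benjamini-Hochberg adjustment over 15642 genes and a threshold of 0.05. CPM was computed without TMM factors. DESeq2 1.42.0 and limma 3.58.1 (voom) were alternatives, with other scalings, gates, depths, a replicate block and libraries left out. Scripts were tested on simulated data.

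Members and gene lists were chosen with earlier results of these data known. Named genes were, per list, up to 4 called genes with the largest change and a mean of at least 5 CPM, or the member with the smallest p where none was called. The 12 largest rises and 12 largest falls outside the lists (at least 20 CPM), the 6 highest and 6 lowest over all genes, and the gate genes were added. Promoters came from RefSeq, build GRCm38.p6. A few genes that were tested are not reported here.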

Additional observations from a re-analysis of the deposited data

Results flagged for a closer look

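Barcodes outside the fibroblast gate were also counted for interferon-list UMIs. Those given here had a UMI of another cell type's marker and were below the fibroblast minimum of Dcn, Lum and Col1a2, so they are fewer than all barcodes with that marker, and their interferon-list levels entered no comparison above. Barcodes with a UMI of Rgs5, a pericyte marker, had 4280 and 4046 CPM of the list with placebo (145 and 183 barcodes) and 11405 and 13492 CPM with MPA+E (161 and 324 barcodes), a ratio of means of 2.99. Their Ifit3 stood at 17.9 and 25.6 CPM with placebo and 269 and 442 CPM with MPA+E.

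Barcodes with a UMI of Pecam1, an endothelial marker, gave 11013 and 7117 CPM with placebo and 15191 and 11967 CPM with MPA+E, a ratio of 1.5 over 13 to 101 barcodes per library. Barcodes with a UMI of Sox10, a Schwann cell marker, gave 1991 and 2820 CPM against 4402 and 6066 CPM, a ratio of 2.18 over 22 to 44 barcodes. Barcodes with a UMI of Epcam, an epithelial marker, overlapped between the arms, with 2678 and 2780 CPM against 2555 and 5614 CPM. No test was made of these sums.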

How the results depend on the processing

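The counts of called, higher and lower genes (678, 421 and 257) became 1358, 714 and 644 with DESeq2, which called 674 of the same 678 genes. With a replicate block they were 2451, 1268 and 1183, all 678 among them. The deviations of same-numbered libraries correlated at 0.396. Across the arms, the median absolute log2 difference was 0.210 and 0.200 for same-numbered libraries. It was 0.248 and 0.269 for unlike-numbered ones. There are 2 pairs, the labels give them only a number in common, and what else they share was not tested. With 1 library left out at a time, the counts ranged from 22 to 900 called, 18 to 549 higher and 4 to 351 lower, and a lone library was then assumed to vary like the other arm. The low ends came from leaving out placebo 1, and leaving out placebo 2 gave 42, 35 and 7. Under RLE scaling, no filter, limma-voom, robust dispersion, the other gates, Scrublet removal and equal depth the counts stayed within 1.5 times.

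Of 159 named genes, none changed direction where it was called in the main fit or in the alternative. Sign changes of genes called in neither were not counted. Most of the 159 were no longer on the called side without placebo 1 or without placebo 2, and 13 were not without the filter. List medians, leaving aside those near 0, changed sign in 14 cases, for glucocorticoid and progestin, retinoic acid, thyroid, imprinted, EGF, VEGF, neurotrophin, basement membrane, fat-cell and luminal lists, the last from -0.62 to 0.13 without the filter.

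Genes with few UMIs, such as Ifnb1, carried the most counting error, and each arm held 2 libraries.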
